A study of Mus musculus with 21 samples.

Results

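The Rhox homeobox genes described here are Rhox5, Rhox6 and Rhox9, X-linked mouse genes that encode homeodomain transcription factors. They were chosen by name, by taking each probe set of the array that the platform annotation assigns to any of them. Each of the 3 genes had exactly 1 such probe set (1423429_at for Rhox5, 1419018_at for Rhox6 and 1449540_at for Rhox9), none of which carried a second symbol. They are 3 of 18193 genes with a single-symbol probe set. Only 1 further Rhox gene, Rhox13 (1443844_at), was represented, and its values are given for comparison.

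Gene expression was measured on 21 Affymetrix 430 2.0 arrays, 3 for each of 7 groups. Androgenetic haploid embryonic stem (ahES) cells, which hold a single chromosome set of paternal origin, were represented by the lines AH129-5, AH129-N1 and AH129-NC1 (9 arrays). Diploid embryonic stem (ES) cells were represented by the lines CS1-1 and R1 (6 arrays). Mouse embryonic fibroblasts (MEF) formed a further group, as did round sperm, which are haploid germ cells formed after meiosis. All ES lines and the round sperm had a 129 Sv background, whereas the MEF had a CD1 background. Cells of all 5 ES lines grew in N2B27 supplemented with 2i and LIF, MEF grew in DMEM with FBS, and round sperm was taken fresh from testis. Haploid G0/G1 cells were collected by FACS for the ahES and round sperm groups, and no sort is stated for the diploid ES cells or MEF. Ploidy, sorting and the origin of the lines therefore cannot be told apart between ahES and diploid ES cells, and each line is 1 derivation. The arrays of a group are labelled as biological replicates without saying that they were separate cultures or animals. The spread between arrays of a group may therefore be technical. P-values of line pairs and of comparisons with MEF or round sperm rest on that spread. Those of ahES against diploid ES also take in the spread between lines, through a correlation shared by all genes.

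Rhox genes stand for reproductive homeobox genes on the X chromosome and lie side by side in a cluster. They are best known from testis, epididymis, ovary and placenta. Rhox5, also called Pem, is the founding member, is expressed in ES cells and in Sertoli cells of the testis, and has been described with a proximal and a distal promoter. Rhox6 and Rhox9, formerly Psx1 and Psx2, are close relatives of each other and were first described in placenta. Promoters of the cluster are known targets of DNA methylation, which silences them in most somatic cells.

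The promoter of Rhox5 is shown because its letters hold the sites at which CpG methylation and promoter-binding factors can act. The window spans 250 bases before to 50 bases after the RefSeq start site (build GRCm38.p6), is written 5′ to 3′ on the plus strand and has its CG dinucleotides in capitals. The Rhox5 window is chrX:37754358-37754657 and the Rhox13 window chrX:38120590-38120889. RefSeq promoter windows were at hand for 1 of the 3 genes, and for Rhox13.
Rhox5: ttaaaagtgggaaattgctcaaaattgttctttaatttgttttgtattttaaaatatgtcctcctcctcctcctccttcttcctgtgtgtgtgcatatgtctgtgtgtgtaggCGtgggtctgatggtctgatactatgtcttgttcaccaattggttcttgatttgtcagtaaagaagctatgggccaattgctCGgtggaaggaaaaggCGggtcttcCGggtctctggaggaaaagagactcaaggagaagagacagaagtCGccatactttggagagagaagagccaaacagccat
Rhox13: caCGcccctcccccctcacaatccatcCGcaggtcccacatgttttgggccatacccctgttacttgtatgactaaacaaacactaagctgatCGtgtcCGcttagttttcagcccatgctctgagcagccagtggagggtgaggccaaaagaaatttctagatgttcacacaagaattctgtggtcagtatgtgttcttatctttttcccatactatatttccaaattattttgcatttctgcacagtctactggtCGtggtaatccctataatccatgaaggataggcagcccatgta

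Each of these windows of 300 bases held 5 CG dinucleotides, against a median of 7 over 32851 promoters of the same length, of which 38.0% held fewer. The Ets-type motif CCGGAA, searched on both strands as were all motifs, had 1 match in the Rhox5 window, starting 33 bases before the start site. That motif occurred in 14.9% of all promoters. The Gata-type motif AGATAA had 1 match in the Rhox13 window and none in that of Rhox5, and occurred in 11.2% of all promoters. GGGCGG, the box bound by Sp1, was found in neither window and in 35.7% of all promoters. The E-box CACGTG was found in neither window and in 7.15% of all promoters. A further Gata-type motif, TGATAA, was likewise in neither window and in 9.05% of all promoters. The Ets-type match holds the CG dinucleotide printed within it. A match is a description of the letters only, and which of the known Rhox5 promoters the table's start belongs to was not tested.

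Values are deposited log2 MAS5 signals, and no probe set was set against another for its level. A level is called near background where a group mean did not exceed the average of the 40th percentiles of its arrays. Those percentiles lay between 4.95 and 5.32 over the 21 arrays.

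Rhox5 had a high signal in every ES line. The 3 arrays read 13.46, 13.50 and 13.51 in AH129-5, 13.27, 13.28 and 13.38 in AH129-N1 and 13.69, 13.60 and 13.58 in AH129-NC1. The diploid arrays read 12.51, 12.51 and 12.61 in CS1-1 and 11.85, 11.94 and 11.88 in R1. Every haploid array was above every diploid array, and every CS1-1 array was above every R1 array. The gene was far lower in MEF, at 5.63, 5.51 and 4.09, and in round sperm, at 6.38, 5.57 and 6.68. In order of mean, AH129-NC1 was followed by AH129-5, AH129-N1, CS1-1, R1, round sperm and MEF, and of these neighbours only round sperm and MEF had overlapping ranges.

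Rhox6 read 9.42, 9.44 and 9.40 in AH129-5, 8.87, 8.65 and 8.33 in AH129-N1 and 8.08, 8.30 and 7.78 in AH129-NC1. It read 5.65, 5.52 and 5.93 in CS1-1 and 6.08, 6.69 and 6.31 in R1. Unlike the order of Rhox5, AH129-NC1 was the lowest of the haploid lines and CS1-1 the lower of the diploid lines. Outside ES cells, Rhox6 read 1.29, 3.34 and 1.20 in MEF and 5.38, 1.64 and 4.34 in round sperm. Both groups were near background, with no MEF array and 1 of 3 round sperm arrays above the 40th percentile, and their ranges overlapped.

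Rhox9 followed the order of Rhox6 in ES cells. Its arrays read 9.21, 9.27 and 9.26 in AH129-5, 9.10, 9.08 and 8.99 in AH129-N1 and 8.24, 8.45 and 8.32 in AH129-NC1. The diploid lines were lower and more scattered, with 6.31, 4.79 and 3.43 in CS1-1 and 6.76, 5.85 and 5.83 in R1. The ranges of CS1-1 and R1 overlapped, and CS1-1 was near background with 1 of its 3 arrays above the 40th percentile. Rhox9 read 4.01, 2.89 and 3.02 in MEF and 2.64, 2.25 and 2.81 in round sperm. All 6 of these arrays were below the 40th percentile, so no order of MEF and round sperm is given, and the range of MEF overlapped that of CS1-1.

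Rhox13, which encodes a Rhox protein known from male germ cells, had the same order over the ES lines as Rhox6 and Rhox9. Its ahES arrays averaged 10.36 ± 0.64 (SD, n = 9) and its diploid ES arrays 7.83 ± 0.43 (SD, n = 6). Its MEF arrays averaged 1.64 ± 0.12 and its round sperm arrays 6.58 ± 0.51 (SD, n = 3 each). All 3 round sperm arrays lay above the 40th percentile for Rhox13, as they did for Rhox5, and no MEF array did for Rhox13.

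**Figure D1:**
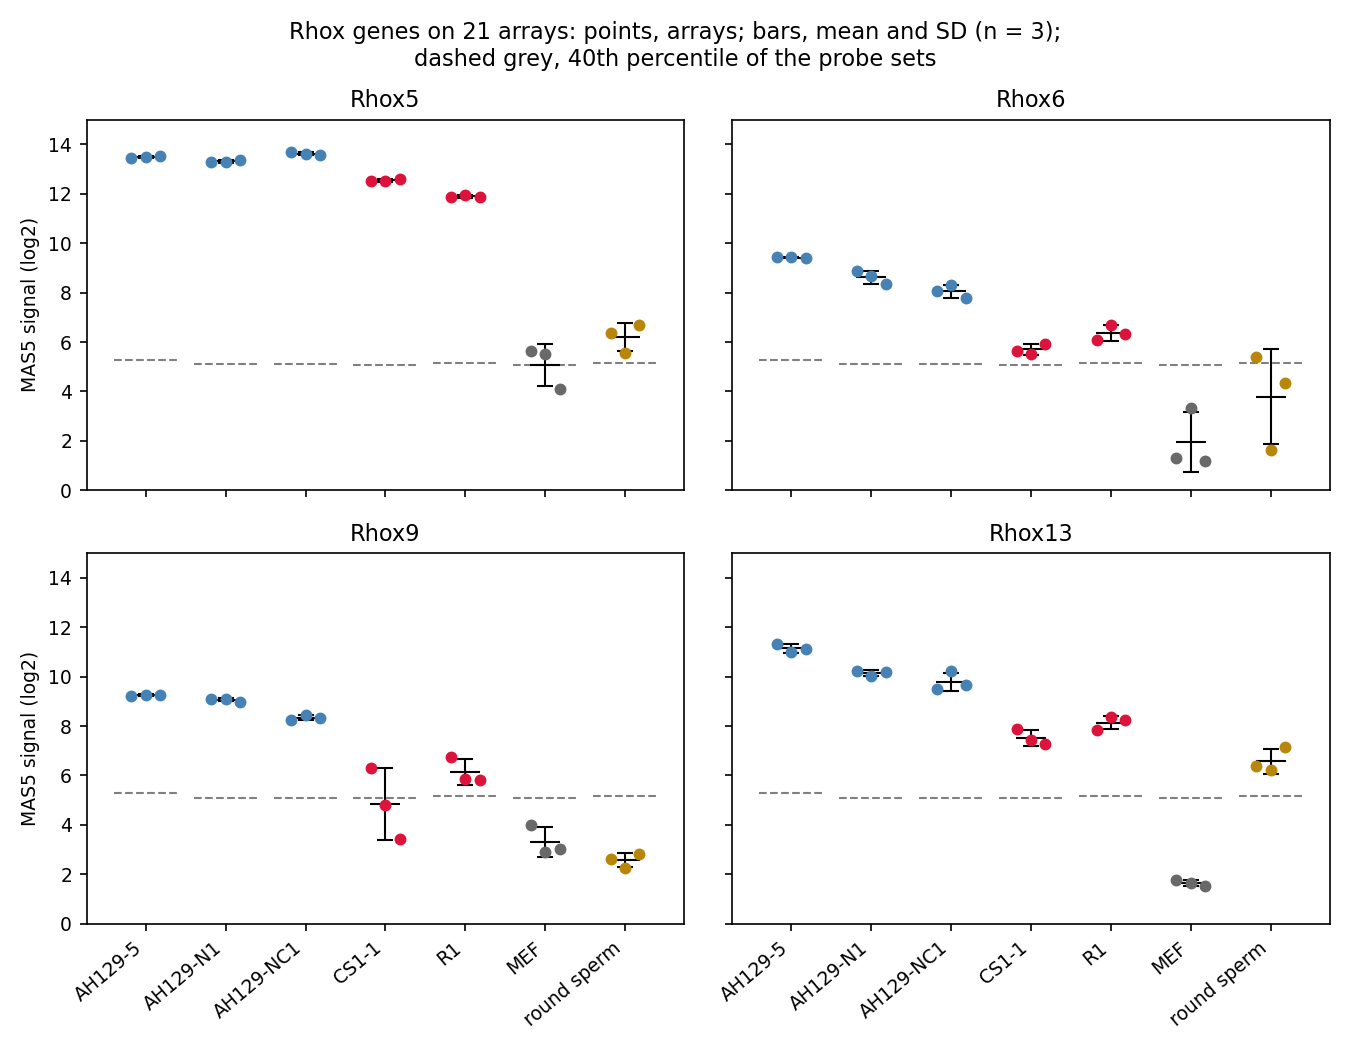
Deposited MAS5 signal (log2, vertical axis) of Rhox5, Rhox6, Rhox9 and Rhox13 in the 7 groups (horizontal axis), with a point per array, black bars for mean and SD (n = 3) and a grey dashed line at the mean 40th percentile of each group's arrays. Haploid lines (blue) lie above diploid lines (red) for each gene, and Rhox9 in CS1-1 scatters from 3.43 to 6.31.

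Haploid and diploid ES cells were compared over the 15 ES arrays with the line as a random block, on log2 of the signal plus an offset of 9.70 signal units. Calls needed a Benjamini-Hochberg adjusted p under 0.05 (limma, over 12891 genes) together with a 2-fold change or more. On simulated data this fit called more unchanged genes than that limit is meant to allow, so its adjusted p may be too small. All 3 genes were higher in ahES cells, in a comparison that called 3% of the tested genes higher and 37% of the 454 tested X-linked genes. Rhox5 was 2.39-fold higher (log2 difference 1.25 ± 0.13, SE; adjusted p = 1.01e-06), from a diploid mean of 12.22 ± 0.36 (SD, n = 6) to an ahES mean of 13.47 ± 0.14 (SD, n = 9). Without R1 its difference was 0.93 (adjusted p = 1.32e-05), which is under 2-fold and ends the call. Rhox6 was 5.64-fold higher (2.50 ± 0.35, adjusted p = 3.92e-05), with means of 8.70 ± 0.62 in ahES and 6.03 ± 0.43 in diploid ES (SD). Rhox9 was 8.37-fold higher (3.07 ± 0.63, adjusted p = 0.00347), with means of 8.88 ± 0.42 and 5.50 ± 1.21. The estimates of Rhox6 and Rhox9 exceeded that of Rhox5, but the difference between genes was not tested.

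In Rhox9, 4 of 6 diploid arrays were above the 40th percentile, and with the percentile in place of the lower values the fold was 7.23. With an offset of 50 signal units its log2 difference was 2.36. The ranges of ahES and diploid ES arrays did not overlap for any of the 3 genes, which held for 14% of all tested genes in either direction. Rhox13 was 5.56-fold higher (2.48 ± 0.38, adjusted p = 2.35e-04), also without overlap. Fibroblast markers moved with this comparison: all 7 measured had differences above 0, with a median of 1.47, and Dcn (2.08 ± 0.61, adjusted p = 0.0400) and Lum (1.47 ± 0.44, adjusted p = 0.0349) were called. Without CS1-1 neither was called, at 0.48 and 0.54. Their part in the Rhox differences was not tested. In these bulk samples, fewer cells with a transcript and less transcript per cell cannot be told apart. Rhox genes have arisen by tandem duplication, and cross-hybridisation between relatives such as Rhox6 and Rhox9 was not tested.

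The X chromosome as a whole was higher in ahES cells, and its values stand beside those of the Rhox genes. A haploid cell carries its X chromosome beside a single set of autosomes, and the labels used here do not give the sex chromosomes of CS1-1 and R1. The median difference was 0.90 over the 454 X-linked genes, with quartiles of 0.57 and 1.27, and -0.04 over autosomal genes. Rhox5 lay 0.35 above that X-linked median and ranked 118 of 454 from the top, inside the upper quartile bound. Rhox6 lay 1.60 above it at rank 24, Rhox9 2.16 above it at rank 16 and Rhox13 1.57 above it at rank 27. Among all 12891 genes the ranks were 381, 48, 32 and 52 for Rhox5, Rhox6, Rhox9 and Rhox13. These ranks describe the same fit and carry no test of their own, and the part of the X-wide shift in the Rhox differences was not tested.

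**Figure D2:**
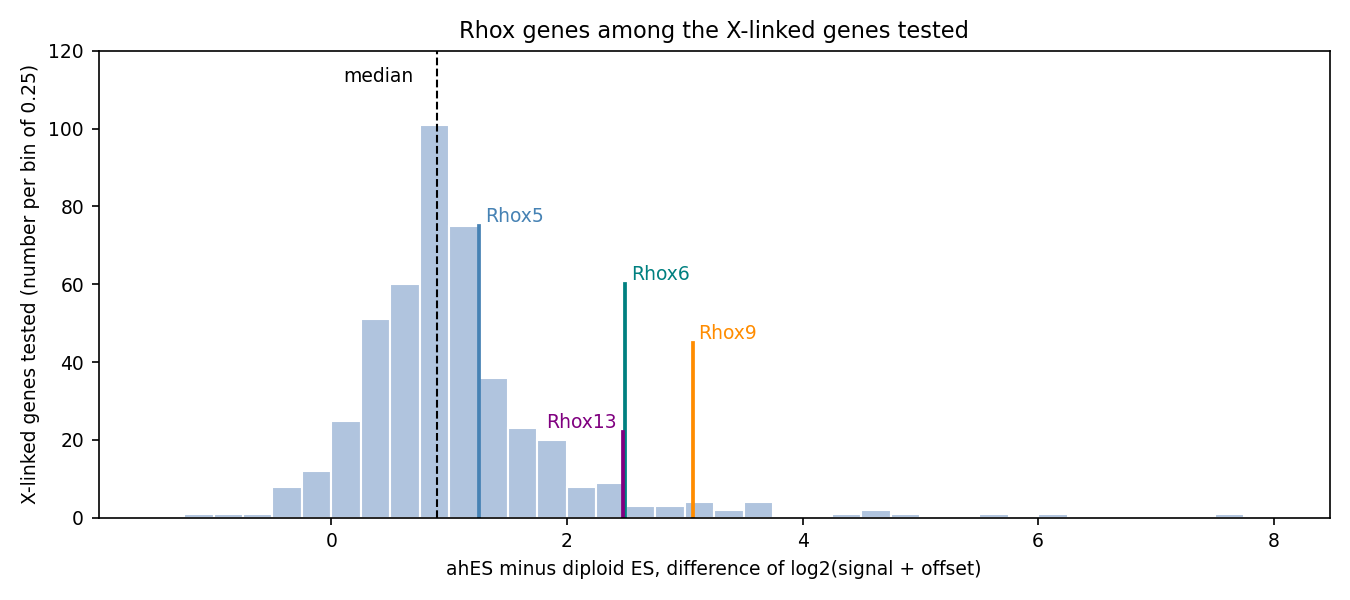
Number of tested X-linked genes (vertical axis, bins of 0.25) by their difference between ahES and diploid ES cells on the log2(signal + offset) scale (horizontal axis), with the median of 0.90 dashed and the 4 Rhox genes as coloured lines of arbitrary height. Rhox5 lies in the body of the distribution at 1.25, and Rhox6, Rhox9 and Rhox13 lie in its upper tail at 2.50, 3.07 and 2.48.

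The same question was put to each of the 6 pairs of a haploid and a diploid line, fitted together over the 15 ES arrays. These pairs share lines and are not independent. Rhox6 and Rhox9 were called higher in all 6 pairs, and Rhox5 in 4. Against CS1-1, the share of all tested genes called higher was 9.86% for AH129-5, 7.3% for AH129-N1 and 8.7% for AH129-NC1. Against R1 the shares were 7.31%, 4.88% and 4.82% in the same order. Calls were more common on the X chromosome. Against CS1-1, 212 of 430, 214 of 429 and 211 of 425 tested X-linked genes were called higher in that order. Against R1 it was 186 of 436, 183 of 432 and 169 of 429.

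Rhox5 exceeded CS1-1 by 0.94 ± 0.05 in AH129-5 and 0.77 ± 0.05 in AH129-N1 (log2 difference ± SE), both with small adjusted p (2.20e-12 and 7.45e-11) but short of 2-fold. It exceeded CS1-1 by 1.08 ± 0.05 in AH129-NC1, which was called. The median difference of X-linked genes was 0.99, 1.00 and 1.00 in these pairs, so Rhox5 lay -0.05, -0.23 and 0.08 from it. Against R1, Rhox5 was higher by 1.60 in AH129-5, 1.42 in AH129-N1 and 1.73 in AH129-NC1, and all of these were called. The X-linked medians there were 0.89, 0.91 and 0.84.

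Rhox6 differed from CS1-1 by 3.49 ± 0.17 in AH129-5, 2.71 ± 0.17 in AH129-N1 and 2.16 ± 0.17 in AH129-NC1. From R1 it differed by 2.92, 2.13 and 1.58 in the same order. Each of these 6 differences was above the X-linked median of its pair. Rhox9 was at least 11.3-fold, 9.90-fold and 6.07-fold higher than CS1-1 in AH129-5, AH129-N1 and AH129-NC1, given as lower bounds because CS1-1 was near background. A test needed all 3 arrays of a compared line above their 40th percentile. In the pairs with CS1-1, Rhox9 met this only through the haploid line, so it could hardly be called lower there. From R1 it differed by 2.93 ± 0.37, 2.75 ± 0.37 and 2.04 ± 0.37.

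**Figure D3:**
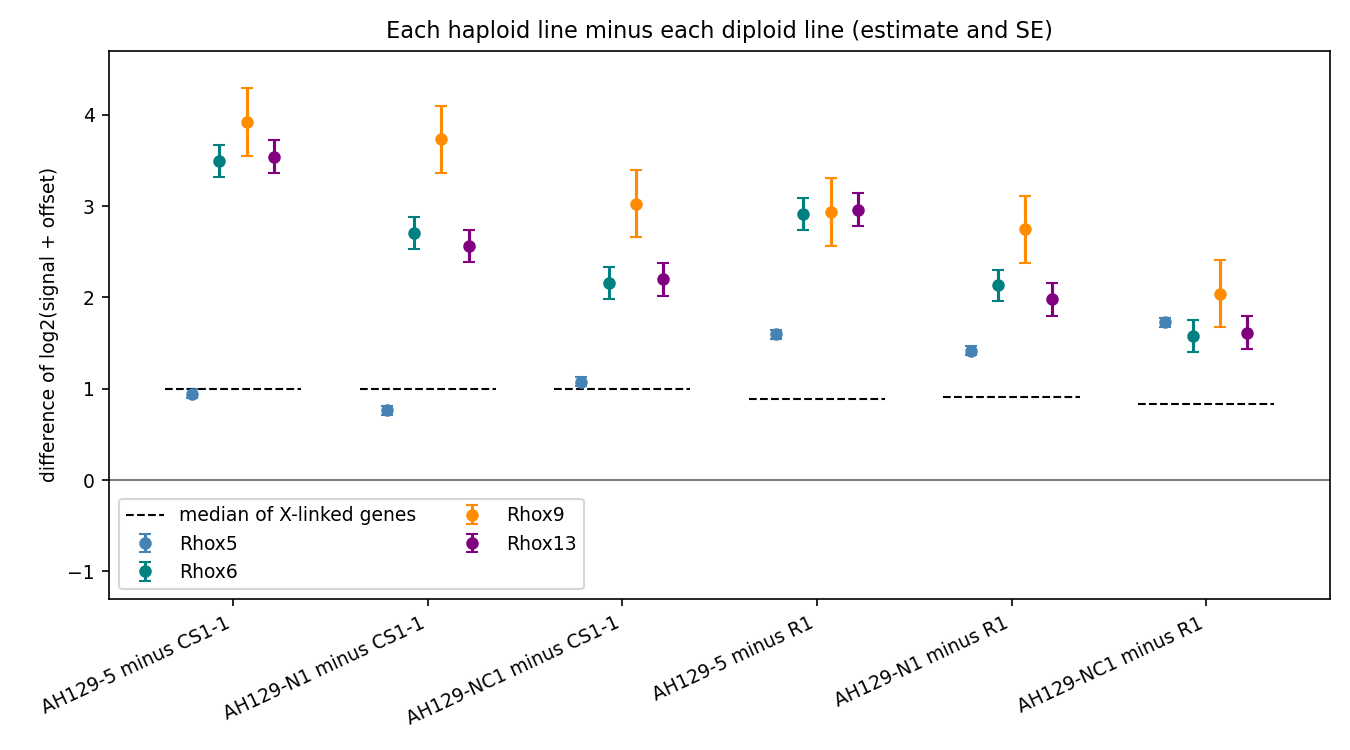
Difference of each haploid line from each diploid line (horizontal axis) on the log2(signal + offset) scale (vertical axis), with points for the estimate and bars for the SE, and the median of the X-linked genes of that pair as a dashed line. Rhox5 lies near the X-linked median against CS1-1 and above it against R1, and Rhox6, Rhox9 and Rhox13 lie above it in all 6 pairs.

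Among lines of 1 kind, the sign for Rhox5 was opposite to that of Rhox6, Rhox9 and Rhox13 in 3 of 4 pairs and the same in AH129-5 minus AH129-N1. CS1-1 minus R1 was 0.65 ± 0.05 for Rhox5 (adjusted p = 1.27e-09), -0.58 ± 0.17 for Rhox6 (adjusted p = 0.00893), -0.98 ± 0.37 for Rhox9 (adjusted p = 0.0384) and -0.58 ± 0.18 for Rhox13 (adjusted p = 0.0127). None of these 4 reached 2-fold, in a comparison that called 9.87% of tested genes in either direction. The fibroblast markers differed between these lines too: the summed signal (log2) of 7 measured markers was 10.91 to 11.31 in CS1-1, 14.41 to 14.48 in R1, 13.99 to 14.53 over the ahES lines and 16.41 to 16.47 in MEF, where all Rhox genes were far lower than in ahES cells, and their part in the Rhox values was not tested. The Rhox9 value rests on scattered arrays: it was -1.55 without CS1-1 replicate 1 (adjusted p = 3.30e-05), past 2-fold, and it also passed 2-fold without R1 replicate 2, at -1.12, or without R1 replicate 3, at -1.12.

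Within haploid lines, Rhox6 was called higher in AH129-5 than in AH129-NC1 (1.34 ± 0.17, adjusted p = 4.49e-06), in a comparison that called 3.22% of tested genes higher. Rhox13 was called higher in that pair too (1.35 ± 0.18). Rhox5 had the opposite sign there, at -0.13 ± 0.05 (adjusted p = 0.0362), and Rhox9 differed by 0.89 ± 0.37 (adjusted p = 0.0688). AH129-5 minus AH129-N1 called 5.31% of genes in either direction and none of the 3, with 0.18 for Rhox5 (adjusted p = 0.00591), 0.78 for Rhox6 (adjusted p = 0.00106) and 0.19 for Rhox9 (adjusted p = 0.716). AH129-N1 minus AH129-NC1 called 3.11% and again none of the 3, with -0.31 for Rhox5 (adjusted p = 5.49e-05), 0.55 for Rhox6 (adjusted p = 0.0166) and 0.70 for Rhox9 (adjusted p = 0.153).

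The genes also varied together to different extents over arrays. Over the 15 ES arrays the Pearson correlation was 0.81 between Rhox5 and Rhox6, 0.78 between Rhox5 and Rhox9 and 0.93 between Rhox6 and Rhox9. Within the 9 ahES arrays it was -0.33, -0.67 and 0.89, and within the 6 diploid arrays -0.76, -0.67 and 0.24. Rhox13 correlated with Rhox6 at 0.98 over the 15 ES arrays, at 0.93 within ahES arrays and at 0.76 within diploid arrays. The arrays of a line share that line, so these are descriptions of 5 lines and not of 15 independent samples.

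The genes whose pattern was most like that of each Rhox gene were found by Pearson correlation, given as a description with no test. Over the 15 ES arrays and 4264 genes, the highest for Rhox5 were Impact (0.989), Cstf2 (0.983), Folr1 (0.982), Cdh4 (0.982) and Abca1 (0.982). For Rhox6 they were the homeobox genes Hoxa9 (0.990) and Hoxa10 (0.985), with Dynlt3 (0.988), Rhox13 (0.984) and H2bfm (0.981). Hoxa9 had line means of 10.77 in AH129-5, 9.79 in AH129-N1, 8.31 in AH129-NC1, 4.73 in CS1-1 and 5.71 in R1. For Rhox9 they were Slc25a31 (0.968), a testis-type mitochondrial ADP/ATP carrier, Fgfr2 (0.966), Zfp185 (0.962), 4930503E14Rik (0.961) and Gm9 (0.959).

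Over all 21 arrays and 14159 genes, where the contrast of ES cells with the other groups enters, the most similar genes were others. They were Trpm1 (0.992), Aoah (0.991), Bex4 (0.990), Epp13 (0.990) and Arrdc4 (0.988) for Rhox5. For Rhox6 they were Aldh3a1 (0.967), Mpped2 (0.956), Glod5 (0.956), Mal (0.954) and Rhox13 (0.953). For Rhox9 they were Ube2a (0.977), Glod5 (0.959), Klhl15 (0.959), Utp14a (0.958) and Pim2 (0.954), all on the X chromosome.

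Genes beside the cluster were read in the same comparison. Of the 10 genes on the array before the cluster and the 10 after it in RefSeq gene order, 16 were tested, and 6 were called higher and none lower (limma), beside the 37% of tested X-linked genes called higher. All 16 differences were above 0. Their median difference was 0.95, close to the X-linked median of 0.90. On one side the nearest were Gm9, at 3.29 ± 0.28 (adjusted p = 8.74e-08), Rnf113a1, at 1.06, Ndufa1, at 0.82, and Akap14, at 0.08. On the other side were Zbtb33, which encodes the methyl-CpG binding protein Kaiso, at 1.01, Tmem255a and Atp1b4, which were not tested, and Lamp2, at 0.38. Gm9, Rnf113a1 and Zbtb33 were called, and the calls of Rnf113a1 and Zbtb33 sit at the 2-fold limit, with 0.95 and 0.97 at an offset of 50 signal units. The estimate of Gm9 was above those of the 3 Rhox genes, which spanned 1.25 to 3.07, but its difference from them was not tested.

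**Figure D4:**
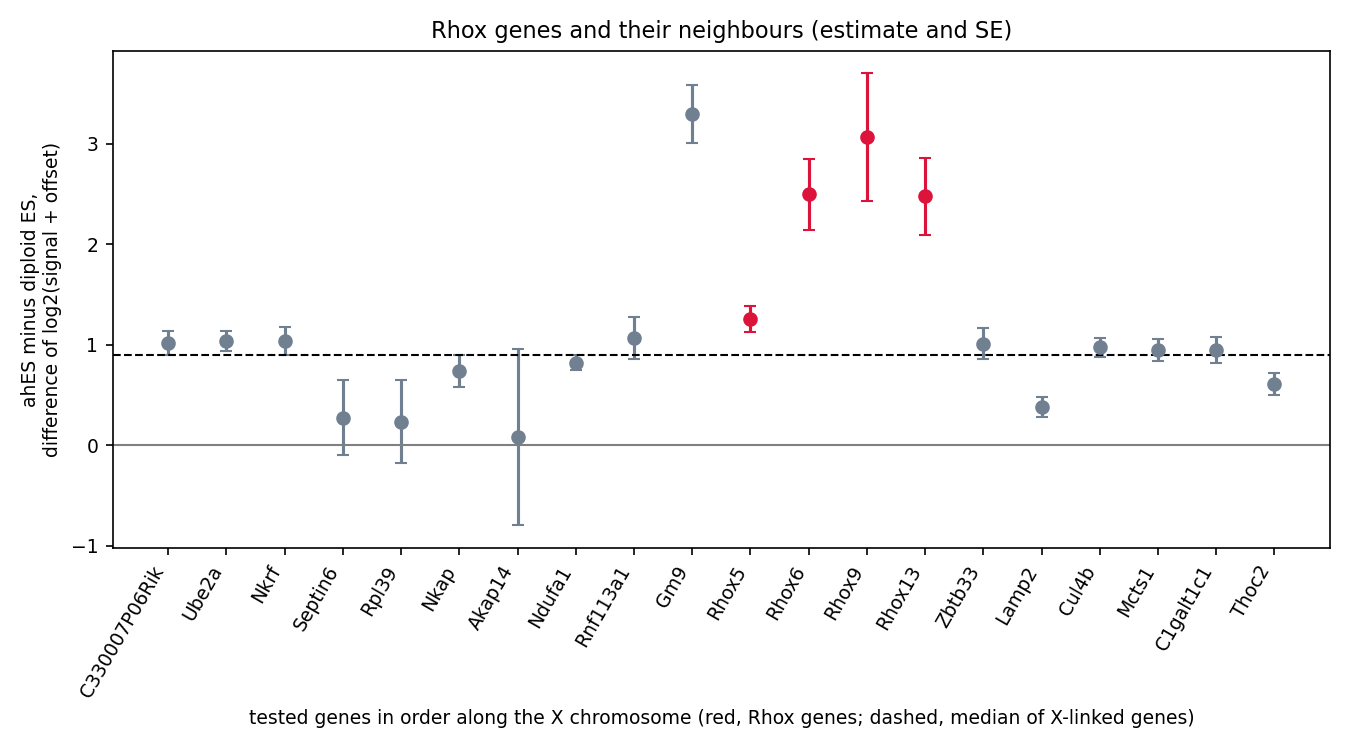
Difference between ahES and diploid ES cells on the log2(signal + offset) scale (vertical axis; points, estimate; bars, SE) for the tested genes in their order along the X chromosome (horizontal axis, equal spacing), with Rhox genes in red, their neighbours in grey and the X-linked median of 0.90 dashed. Gm9, Rhox6, Rhox9 and Rhox13 lie above 2, and the other neighbours lie between 0.08 and 1.06.

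The fibroblast and germ cell comparisons used group means over all 21 arrays and share the ES arrays, so their values are given side by side. In ahES minus MEF, which called 21.1% of 13220 tested genes higher, all 3 genes were called. Of the 470 tested X-linked genes 198 were called higher, with a median difference of 0.74. Rhox5 lay 7.26, Rhox6 4.16 and Rhox9 3.86 above that median. Rhox5 was 256-fold higher in ahES cells (8.00 ± 0.19, adjusted p = 1.43e-17), and 223-fold with the 40th percentile as the floor of MEF, where its mean was 5.08 ± 0.86 (SD, n = 3). An offset of 50 signal units made that difference 7.05. Rhox6 was at least 9.80-fold higher (4.90 ± 0.28, adjusted p = 1.28e-12) and Rhox9 at least 11.1-fold (4.60 ± 0.29, adjusted p = 5.47e-12). Fitted differences of genes near background depend on the offset, and for Rhox6 the value ran from 3.10 at an offset of 50 to 6.38 at an offset of 1. MEF held 7 of 7 measured fibroblast markers above the 40th percentile, but so did each ahES line and R1, so this count does not set MEF apart. The summed signal (log2) of these markers was highest in MEF, at 16.41 to 16.47.

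Diploid ES minus MEF called 22.6% of 13016 genes higher and again all 3 Rhox genes. Of 432 tested X-linked genes 86 were called higher, with a median difference of -0.15. Rhox5 was 107-fold higher (6.75 ± 0.20, adjusted p = 4.23e-16). The bounds for the other genes were small: at least 1.74-fold for Rhox6 (2.41 ± 0.30, adjusted p = 2.94e-07) and at least 1.32-fold for Rhox9 (1.53 ± 0.31, adjusted p = 1.24e-04). The Rhox9 ranges of diploid ES and MEF arrays overlapped, and its difference was 0.75 at an offset of 50, under 2-fold.

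In ahES minus round sperm, 40.8% of 14765 genes were called higher. Of the 507 tested X-linked genes 353 were called higher, with a median difference of 2.85. Rhox5 lay 4.23, Rhox6 1.13 and Rhox9 2.09 above that median. Rhox5 was 135-fold higher (7.08 ± 0.19, adjusted p = 1.26e-17), Rhox6 at least 9.15-fold (3.98 ± 0.28, adjusted p = 1.29e-11) and Rhox9 at least 10.6-fold (4.94 ± 0.29, adjusted p = 3.96e-13). Diploid ES minus round sperm called 40.8% of 14595 genes higher, with Rhox5 56.7-fold higher (5.82 ± 0.20, adjusted p = 7.62e-16). Of 475 tested X-linked genes 295 were called higher in that comparison, with a median of 1.98. Rhox5 lay 3.85 above that median, whereas Rhox6 lay -0.50 and Rhox9 -0.10 from it. The part of the X-wide shift in these differences was not tested. Rhox6 was at least 1.62-fold higher there (1.48 ± 0.30, adjusted p = 1.00e-04), a call lost without round sperm replicate 2 (0.94, adjusted p = 0.00135) and at an offset of 50 (0.74). Rhox9 was at least 1.27-fold higher (1.87 ± 0.31, adjusted p = 7.46e-06), and its call was lost at an offset of 50 (0.86).

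Rhox5 alone of the 3 could be tested between MEF and round sperm, as Rhox6 and Rhox9 passed the filter on low values in neither group. Rhox5 passed it through round sperm only, so it could hardly be called higher in MEF. Its difference of -0.92 ± 0.23 (adjusted p = 0.00101) was under 2-fold, in a comparison that called 34.3% of 14407 genes lower in MEF. It passed 2-fold under several settings: -1.11 at an offset of 1, -1.04 with arrays centred on their median, -1.15 with quantile normalization, and -1.13, -1.08 and -1.20 without MEF replicate 1, MEF replicate 2 and round sperm replicate 2. Without MEF replicate 3 it was -0.56. RNA quality moved with this group: the 3′ probe set of Gapdh exceeded its 5′ probe set by 0.55 ± 0.17 on the log2 scale (SD, n = 3) in round sperm, against -0.21 in MEF and -0.24 in ahES and in diploid ES cells, and its part in the Rhox values was not tested.

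Because Rhox5 is known from Sertoli cells, markers of those cells were read in round sperm. Of 10 measured Sertoli markers, 4 were above the 40th percentile on all round sperm arrays, namely Sox9, Clu, Fshr and Aard. Amh, Wt1, Gata4, Cldn11, Inhbb and Dhh were not. The summed signal (log2) of the 10 was 9.47 to 9.77 in round sperm and 11.93 to 12.03 in MEF. It was 10.41 to 11.30 in ahES and 9.95 to 10.86 in diploid ES. That sum was lowest in round sperm, but it weighs the brightest markers most, and single markers differed. Over the 7 groups, the means of Fshr (5.85) and Cldn11 (5.35) were highest in round sperm. Those of Clu (7.68) and Inhbb (5.02) were lowest there, and the other markers lay in between. With the ES lines pooled into ahES and diploid ES, the means of Gata4 (5.80) and Dhh (4.85) were highest in round sperm too. All 8 markers of round spermatids were above the 40th percentile on all round sperm arrays, with summed signals of 16.94 to 17.51, and in no other group was any of them above it on all arrays.

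Because Rhox6 and Rhox9 are known from placenta, trophoblast markers were read in the ES lines. Cdx2, a transcription factor of early trophoblast and also of posterior embryonic tissue, was 12.2-fold higher in ahES cells (3.61 ± 0.31, adjusted p = 6.81e-08). Plac1, an X-linked placental gene, was at least 2.57-fold higher, and Eomes, another trophoblast regulator, fell (-1.17 ± 0.35, adjusted p = 0.0346). Of the 11 markers 9 were tested, and the other 6 tested were not called. The comparison called 3% of all tested genes higher and 1.35% lower. Among tested X-linked genes, where Plac1 belongs, it called 37% higher. With 1 mean per line the adjusted p was 0.0562 for Plac1 and 0.122 for Eomes, and neither was called; the Plac1 call was also lost without AH129-5 and without CS1-1, and the Eomes call without AH129-N1 and without CS1-1. Elf5 and Tpbpa were above the 40th percentile on all arrays of no group. The summed signal was 12.73 to 12.80 in AH129-5, 11.28 to 11.54 in AH129-N1, 11.37 to 11.51 in AH129-NC1, 11.57 to 11.59 in CS1-1 and 11.43 to 11.52 in R1. It stood apart in AH129-5 only, but it weighs the brightest markers most, which were Krt8 (11.14) and Krt18 (10.86) in that line. Their means in the other ES lines were 8.10 to 10.16 and 7.50 to 8.44. Of the ES lines, AH129-5 also had the highest means of Cdx2, Plac1 and Hand1, but not of Tfap2c, Eomes, Gata3 and Ascl2. The part of the sum in the Rhox6 and Rhox9 differences was not tested. The 6 pluripotency markers were above the 40th percentile in all ES lines, with summed signals of 15.66 to 16.10.

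A list on DNA methylation and H3K9 methylation mixed genes of opposing roles. It held DNA and H3K9 methyltransferases and their partners, the Tet enzymes, which oxidise methylated cytosine, and binding or protective proteins such as Trim28, Zfp57, Cbx3 and Dppa3. Of 16 tested genes of that list, 2 were called higher in ahES cells and none lower. The comparison called 3% of all tested genes higher and 1.35% lower. The median difference of the list was -0.02, against -0.03 over all genes. With no adjustment of p (under 0.05, limma), 4 of the list were higher and 4 lower. The share of all tested genes at that unadjusted limit is not given, here or for later lists, so such counts are a description only. Both called genes encode de novo DNA methyltransferases: Dnmt3b, at 2.39-fold (1.26 ± 0.15, adjusted p = 4.54e-06), and Dnmt3a, at 2.33-fold (1.22 ± 0.25, adjusted p = 0.00186). The Dnmt3a call was lost with 1 mean per line (adjusted p = 0.0758). Hells, a chromatin remodeller needed for DNA methylation, had a difference of -0.46 (adjusted p = 0.00746), and Dnmt1, the maintenance methyltransferase, of -0.41 (adjusted p = 0.0294), both under 2-fold. Methylation itself was not measured.

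Factors known to act on the Rhox5 promoters or on silent germline promoters, of the Ets, Gata, Sp and E2f6 groups, gave no call. None of 16 tested was called in either direction by limma, beside 3% of all tested genes called higher and 1.35% lower. The median was 0.12. With no adjustment of p (under 0.05), 2 were higher and none was lower. The smallest adjusted p were those of Elk1 (0.73 ± 0.28, adjusted p = 0.0998), Ets2 (0.36 ± 0.16, adjusted p = 0.181), Ets1 (0.98 ± 0.49, adjusted p = 0.236) and Sp1 (-0.18 ± 0.12, adjusted p = 0.390). Ets1 was called without R1, at 2.23 (adjusted p = 9.07e-04).

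Genes tied to Rhox factors in gonads gave no call. Of 7 on the array, 4 were tested and none was called by limma, with a median of -0.30. Of all tested genes, 3% were called higher and 1.35% lower. With no adjustment of p (under 0.05), 1 was lower and none higher. That gene was Dmrt1, a regulator of male germ cells (-1.39 ± 0.46, adjusted p = 0.0582), which was called without R1, at -2.55 (adjusted p = 7.22e-05). The others were Gfra1 (-0.42), Zbtb16 (-0.18) and Unc5c (-0.07).

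Other germline genes that DNA methylation is known to silence moved in both directions. Of 22 tested, 6 were higher and 2 lower in ahES cells, beside 3% and 1.35% of all tested genes, with a median of 0.33. The most significant were Nxf2, an X-linked mRNA export gene of germ cells, at least 4.28-fold higher (3.65 ± 0.49, adjusted p = 1.78e-05), Tex13b, at least 6.32-fold (3.07 ± 0.48), Taf7l, at 4.28-fold (2.10 ± 0.35), and Slc25a31, at 3.66-fold (1.87 ± 0.34). The Tex13b call was lost with 1 mean per line (adjusted p = 0.0611). Nxf2, Tex13b and Taf7l lie on the X chromosome and Slc25a31 on chromosome 3. Among tested X-linked genes, ahES minus diploid ES called 37% higher. Some genes of the list, such as Nxf2, passed the filter on low values in that comparison only through ahES lines, and others only through CS1-1. These could hardly be called in the other direction. Against MEF, 16 of 21 tested genes of the list were higher in ahES cells and 1 was lower, beside 21.1% and 21% of all tested genes. Many of the list, such as Dazl, Mael and Nxf2, were near background in MEF. Such genes passed the filter on low values only through ahES lines, so they could hardly be called lower. The list was also chosen as germline genes known to be silenced, so its counts against MEF are a description and not a test of direction. Against round sperm the counts were the other way, with 4 of 24 higher in ahES cells and 16 lower (40.8% and 32.2% of all tested genes) and a median of -2.89, while all 3 Rhox genes were higher in ahES cells.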

How the data were processed

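RNA of 21 samples was hybridised to Affymetrix 430 2.0 arrays. The deposited values are log2 signals computed with MAS5, per the submitters' processing notes, with no version given; the base was read from the values, whose 2% trimmed mean after raising from base 2 was 500 on each array. No detection calls were used, and the number of arrays limits precision. For genes with several probe sets the brightest on average was taken, named by the platform annotation and a RefSeq gene table. An offset of 9.70 signal units was added before log2. Testing required all 3 arrays of some compared line or group to exceed their own 40th percentile. The fits used R 4.3.3 with limma 3.58.1 and statmod 1.5.0, a variance trend and robust moderation; all tests are two-sided, with Benjamini-Hochberg adjustment over all genes tested. For ahES against diploid ES, line was a random block (consensus correlation 0.687). Line pairs used 15 arrays, other comparisons 21. Near background, folds are lower bounds with the 40th percentile in place of lower values. Motifs were searched on both strands. The genes, lists and tests were chosen with earlier results of these data known. Named genes are the Rhox genes, the 4 smallest adjusted p of each list, the 5 most correlated genes and the 4 neighbours on each side. Alternatives are in the closing section. The workflow was tested on simulated data, where the fit with line as a random block also called some genes made without a change, more than the fit of ahES against MEF did. Replicate numbers did not pair arrays.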

Additional observations from a re-analysis of the deposited data

How the results depend on the processing

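Of 494 recomputed values of Rhox5, Rhox6 and Rhox9 in the comparisons of kinds of cell, 483 kept their direction and their side of the threshold, 6 newly passed it, 5 no longer did and none changed sign. A filter at the 60th percentile left some results untested, and these are not among the 494. They were Rhox6 and Rhox9 in diploid ES minus MEF and minus round sperm, and Rhox5 in MEF minus round sperm. For ahES minus diploid ES the log2 differences ran from 0.93 to 1.58 for Rhox5, 2.01 to 2.81 for Rhox6 and 2.36 to 3.56 for Rhox9, with adjusted p of at most 0.0234, 0.0246 and 0.0198 (limma). The Rhox5 call ended without R1, at 0.93. At an offset of 50 signal units the calls ended for Rhox9 in diploid ES minus MEF (0.75), Rhox6 in diploid ES minus round sperm (0.74) and Rhox9 in diploid ES minus round sperm (0.86). Leaving out each array in turn gave 0.94 to 1.94 for Rhox6 in diploid ES minus round sperm. Rhox5 in MEF minus round sperm newly passed at an offset of 1 (-1.11), with arrays centred on their median (-1.04) and with quantile normalization (-1.15), and ran from -1.20 to -0.56 with each array left out. Genes called in ahES minus diploid ES numbered 561, against 953 with no line block, 284 with 1 mean per line, 1098 without R1 and 537 to 573 with each array left out. Replicate numbers were shared between groups by label only: of 63 same-number pairs of arrays none correlated over 0.1, and 4 of 21 arrays correlated best with their own number. With the replicate block, 524 genes were called in ahES minus diploid ES, Rhox5, Rhox6 and Rhox9 kept their log2 differences of 1.25, 2.50 and 3.07 (adjusted p = 5.55e-06, 1.04e-04 and 0.00191), and no call on these genes changed in that comparison or in those with MEF and round sperm. Other changes of more than 1.5 times in a fold of the 3 genes came only from an offset of 1 or 50. The low signals of Rhox6 and Rhox9 outside ahES lines, and 3 arrays per group, limit what their differences from MEF and round sperm can show.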
